A study of Homo sapiens with 18 samples.

Results

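The human lung adenocarcinoma line H2030 was compared with the lung adenocarcinoma line H2087-LCC (here LCC) for acetylation of histone H3 at lysine 27 (H3K27ac), measured by chromatin immunoprecipitation and sequencing. The comparison rests on 3 of the 18 samples of the series, chosen as the H3K27ac libraries of these lines: 1 H2030 library and 2 LCC libraries labelled as biological replicates 1 and 2. Their peak lists hold 52414 summits in H2030, 50628 in LCC replicate 1 and 62947 in LCC replicate 2 on chromosomes 1 to 22 and X. Together these are 165989 of the 947675 summits in the series. Neither line was treated, and the same H3K27ac antibody was used for all 3 libraries. Set beside them are 1 H3K27ac library of LCC cells given 100 nM TGF-β1 for 4 days (here TGFb) and 1 of the line labelled H2087-LCC-SO1 (here SO1), and 1 H3K4me1 and 1 H3K4me3 library each of H2030 and untreated LCC. Both lines grew in RPMI medium with serum. The labels list pyruvate, HEPES, hydrocortisone, selenite, insulin, transferrin, albumin and epidermal growth factor for the medium of LCC and SO1 only, so line and medium cannot be told apart. The labelled cell type was not checked against marker genes, and regions are named by position, because no gene annotation of the hg19 build was used here.

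H3K27ac is placed by the acetyltransferases p300 and CBP and marks active promoters and active enhancers. H3K4me3 marks promoters. H3K4me1 marks enhancers and can stand at an enhancer that carries no acetylation. Active promoters are to a large extent common to cell types, while enhancer use is known to differ between them. A summit is the highest base of a peak, and its score, a −log10 significance value given by the authors' caller, served to rank peaks within their own list. There is 1 library on the H2030 side, so no p-value can be given, and every difference is set beside the difference between the LCC replicates. Read depth is unknown, and all intervals below are Wilson 95% intervals that cover counting error only.

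H2030 shared fewer H3K27ac sites with LCC than the LCC replicates shared with each other, and the gap was widest away from promoters. With the lists reduced to the same number of 50628 highest-scoring summits, 36.4% of H2030 summits had a summit of LCC replicate 1 within 500 bp and 36.8% had one of replicate 2. The same share was 65.9% of replicate 1 summits in replicate 2 and 65.4% in the reverse direction. A list moved by 2 Mb gave 2.05% and 1.99% for H2030. Among H2030 summits within 1 kb of an H2030 H3K4me3 summit, 63.5% (62.8 to 64.2) were found in replicate 1 and 64.2% (63.5 to 64.9) in replicate 2. The matching promoter shares between the replicates were 81.0% and 82.5%. Among distal summits, more than 2.5 kb from H3K4me3 of the same line, 20.8% (20.3 to 21.3) of the H2030 summits were found in replicate 1 and 21.2% (20.8 to 21.7) in replicate 2. The replicates shared 57.9% and 55.3% of their distal summits. The difference between H2030 and LCC thus exceeded that between replicates in both classes.

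Strong sites were shared more often than weak ones. Of the 10% of H2030 summits with the highest scores, 80.0% lay within 500 bp of a replicate 1 summit and 76.9% of a replicate 2 summit. Of the 10% with the lowest scores, 10.6% did so for either replicate. In the other direction, 66.8% of the strongest replicate 1 summits and 68.4% of the strongest replicate 2 summits were found in H2030. The replicates found 85.9% and 88.8% of each other's strongest summits. In the fourth of these 10 score classes H2030 sharing had dropped to 43.8% and 45.9%, where the replicates still shared 77.7% and 87.7%.

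**Figure D1:**
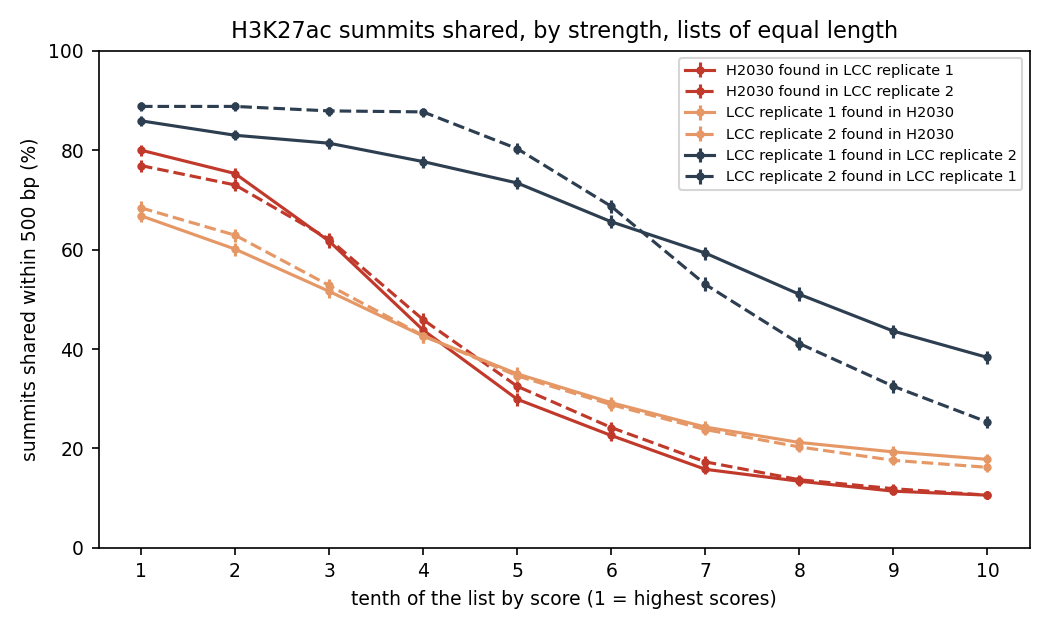
Share of H3K27ac summits (vertical axis, %) with a summit of the other list within 500 bp, in 10 score classes from the highest to the lowest (horizontal axis), for lists of equal length. Bars are Wilson 95% intervals. The H2030 curves start at 80.0% and 76.9% and end at 10.6%, below the curves between the LCC replicates in each of the 10 classes.

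The balance of promoter and distal sites was similar in the lines. H3K4me3 of the same line lay within 1 kb of 35.3% of the H2030 summits, against 39.1% in LCC replicate 1 and 32.3% in replicate 2. Distal summits made up 59.1% of the H2030 list, against 55.2% and 62.1% of the LCC lists. The H2030 shares lay between those of the replicates in both cases. The median score of promoter summits was 122 in H2030, against 29.4 and 57.9 in the LCC replicates, while the median of distal summits was 8.11, against 8.19 and 8.67. Scores rise with depth, whose part in the promoter values was not tested.

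H3K4me3 summits of H2030 and LCC, merged within 1 kb, gave 33678 elements that stand for promoters. H3K27ac lay within 1 kb of 13612 of these in all 3 lists, of 3745 in H2030 alone and of 4418 in both LCC replicates but not in H2030. A stricter call was made for acetylation that differed. The words gained and lost compare the lines and imply no change over time. An element was gained when its H2030 score was in the upper 50% of marked elements and no LCC summit of either replicate lay within 10 kb. It was lost when both LCC replicates marked it, at least 1 of them in the upper 50%, and no H2030 summit lay within 10 kb. By this call 376 elements, 1.12% of all, were gained in H2030 and 962, or 2.86%, were lost. Against LCC replicate 1 alone, H2030 gained 539 elements (1.60%) and lost 837 (2.49%), while replicate 2 gained 2 (0.00594%) and lost 4 (0.0119%) against replicate 1. Against replicate 2 alone, H2030 gained 418 (1.24%) and lost 798 (2.37%), while replicate 1 gained 4 (0.0119%) and lost 2 (0.00594%). Losses outnumbered gains under each of these choices, and both exceeded the replicate difference.

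**Figure D2:**
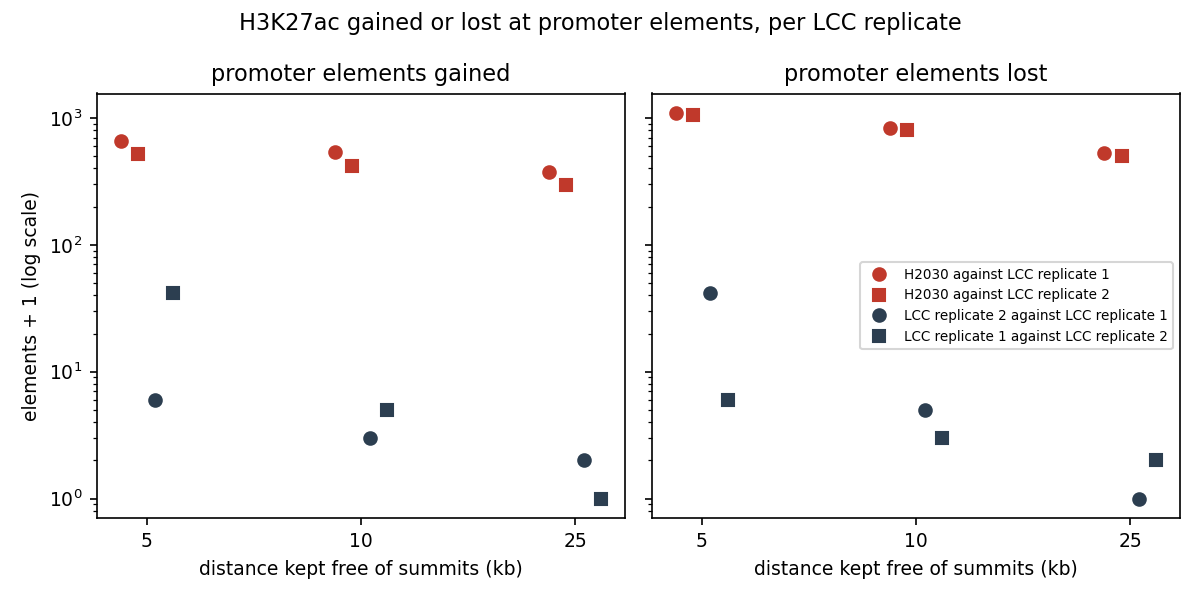
Promoter elements that gained (left) or lost (right) H3K27ac against a single LCC replicate, plotted as elements + 1 on a log axis, when no summit of the other list was allowed within 5, 10 or 25 kb (horizontal axis). At 10 kb H2030 gained 539 and 418 elements and lost 837 and 798, while each LCC replicate gained or lost 2 or 4 against the other.

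The elements lost in H2030 were as a rule shared by the other H2087 conditions. Of the 962 lost elements, 94.4% (92.7 to 95.7) carried H3K27ac in TGFb and 90.4% (88.4 to 92.1) in SO1. Of the 376 gained elements, 18.6% (15 to 22.9) carried H3K27ac in TGFb, and the share in SO1 was equal. Among elements acetylated in all 3 lists the shares were 97.3% in TGFb and 95.5% in SO1. Gained and lost elements were chosen by presence or absence in untreated LCC, so these shares are no independent measure of likeness. H3K4me3 lay mostly in the line that carried the acetylation. The calls used it only to choose elements, but every element has it in H2030, LCC or both. Where a line lacks it, the other must therefore have it, so the shares of the lines are not independent. Of all 33678 elements, 25310 carried it in H2030, 25679 in LCC and 17311 in both. H2030 had H3K4me3 within 1 kb of 14.8% (12.7 to 17.1) of the lost elements, and LCC of 99.0%. Among the gained elements, 98.7% carried H3K4me3 in H2030 and 26.6% (22.4 to 31.3) in LCC. Elements acetylated in all 3 lists carried H3K4me3 in 91.4% for H2030 and 92.8% for LCC. H2030 had no summit of any of the 3 marks within 10 kb of 399 lost elements, and LCC had none at 155 gained elements. At such sites absent DNA and absent marks cannot be told apart. A wide peak is listed by a single summit, and 255 of the lost elements had an H2030 summit within 50 kb that ranked at least as high in its list. For 53 of the gained elements an LCC summit did.

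Many elements rest on weak H3K4me3, so the calls were repeated, after the data were seen, with H3K4me3 at or above the list median (247 in H2030, 189 in LCC) in the line that carried the acetylation. These strong promoters numbered 148 gained and 288 lost, which is 1.01% and 1.97% of the 14652 elements with such H3K4me3 in either line. LCC carried some H3K4me3 at 84 of the 148 gained ones, but only 21 reached its median. H2030 carried H3K4me3 at 114 of the 288 lost ones, and 38 reached its median. Of the 288, 263 were acetylated in both TGFb and SO1, and 78 had an H2030 summit of equal or higher rank within 50 kb.

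The strongest loss was at 5:138861556. It scored 315 in LCC replicate 1 and 468 in replicate 2, percentile 99.9 of marked elements in each list, while the nearest H2030 H3K27ac summit lay 35915 bp away. H3K4me3 scored 475 in LCC, and the nearest H2030 H3K4me3 summit lay 36275 bp away, while a weak H2030 H3K4me1 summit scoring 11.1 stood 531 bp from the element. TGFb and SO1 kept H3K27ac there with scores of 433 and 516. H2030 thus lacked both H3K27ac and H3K4me3 at a site that LCC, TGFb and SO1 acetylated.

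The next losses with strong H3K4me3 differed in what H2030 retained. At 14:36988270 LCC H3K27ac scored 235 and 411 and H3K4me3 524, while the nearest H2030 H3K27ac summit lay 63275 bp away. An H2030 H3K4me3 summit stood 1049 bp from this element, just beyond the distance used. Acetylation was also lost nearby at 14:36685703 (203 and 417) and 14:36707719 (172 and 337), where LCC H3K4me3 scored 183 and 10.4. At 3:181430086-181430123 LCC scored 204 and 323 for H3K27ac and 492 for H3K4me3. H2030 kept H3K4me3 there with a score of 226, below its list median, and had no H3K27ac within 70519 bp. At 7:8008622-8008672 H3K4me3 was strong in both lines, with scores of 584 in H2030 and 461 in LCC. H3K27ac scored 156 and 305 there in the LCC replicates, while the nearest H2030 summit lay 206725 bp away. H2030 thus kept H3K4me3 without acetylation at some of these sites and had neither mark at others. At 1:159046100 (205 and 235) and 11:94841020 (169 and 271) H2030 had its nearest H3K4me3 summits at distances of 66059 bp and 17786 bp.

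Other strongly acetylated LCC elements that were lost carried weak H3K4me3 in LCC, below the list median of 189. They included 1:203122044, with H3K27ac scores of 258 and 505, and 2:65024399, with 287 and 361. Further ones were 17:35277805 (187 and 339), 3:133920407 (176 and 313), 5:148784321 (172 and 295) and 1:204073760 (171 and 293). LCC H3K4me3 at these 6 elements scored between 5.52 and 39.5. H3K27ac was present in both TGFb and SO1 at 5 of them, and at 2:65024399 neither had a summit within 1 kb, the nearest lying 1227 bp and 1185 bp away. LCC H3K4me1 at the 6 elements scored between 76.2 and 166, except at 17:35277805, where none lay within 1 kb. Whether these elements are promoters was not tested.

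Among the elements gained in H2030, those with strong H3K4me3 were led by 22:22901481-22901522. Its H2030 scores were 417 for H3K27ac and 558 for H3K4me3, while the nearest LCC H3K27ac summits lay 26183 bp and 27147 bp away. LCC carried H3K4me3 there with a score of 44.8. At 6:14777359 H2030 scored 397 for H3K27ac and 522 for H3K4me3, and LCC had no H3K4me3 within 43917 bp. The sites 6:127440034-127440035 (376 for H3K27ac, 556 for H3K4me3) and 1:72749177-72749199 (336 and 444) held weaker H3K4me3 in LCC, with scores of 26.6 and 91.5. At 9:25677984 (355 and 504) every LCC H3K27ac and H3K4me3 summit lay at least 481922 bp away. At 2:75466476-75466950 (351 and 343) TGFb and SO1 had H3K27ac as well, with scores of 57.5 and 131, and the nearest LCC summits stood 16678 bp and 16766 bp away.

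The 3 gained elements with the highest H2030 acetylation had weak H3K4me3. The leading one, 18:45529819, scored 471 for H3K27ac and 2.64 for H3K4me3, with the nearest LCC H3K27ac summits 72453 bp and 73328 bp away. At 7:80572534 the scores were 429 and 21.9, and at 4:67430532-67431484 they were 419 and 42.9. Both of these and 18:45529819 lie in regions where H2030 had far more summits than LCC, given further on. Also among the first 12 were 6:136336027 (406 for H3K27ac), 17:9739771 (402), 5:58187548-58187555 (398), 6:11195271 (394), 7:11826274 (390) and 2:36713693 (373). H3K4me3 at these 6 scored between 6.5 and 97.7 in H2030.

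Where all 3 lists marked an element, its strength still differed between the lines. Across the 13612 such elements, which share the same genome positions, the Spearman correlation of scores was 0.54 between H2030 and LCC replicate 1, 0.56 with replicate 2, and 0.89 between the replicates. The median difference in percentile was 14.8 and 13.7 points for H2030, against 8.49 points between replicates. H2030 stood at least 50 percentile points above both replicates at 237 elements (1.74%) and as far below both at 385 (2.83%). The replicates lay that far apart at 17 elements (0.125%).

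The largest such shift upward, 22:18455369, held percentile 97.6 in H2030, against 1.04 and 7.92 in the LCC replicates. Its H3K4me3 score was 93.8 in H2030, and LCC had no H3K4me3 within 1 kb. The element X:23918242 held percentile 89.4 in H2030, against 1.72 and 1.67 in LCC. The largest shift downward, 3:156848131, held percentile 0.444 in H2030, against 99.4 and 98.5 in LCC. At 15:51659804 the percentiles were 3.12 in H2030 and 99.3 and 99.6 in LCC. Every list had a summit at these sites, but the scores at the low end were weak. In the LCC replicates they were 2.9 and 6.72 at 22:18455369 and 3.3 and 3.53 at X:23918242. In H2030 they were 2.74 at 3:156848131 and 5.3 at 15:51659804, where the lowest score of each list was 1.31. LCC H3K4me3 at 15:51659804 scored only 3.4, and the nearest H2030 H3K4me3 summit lay 25662 bp away.

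**Figure D3:**
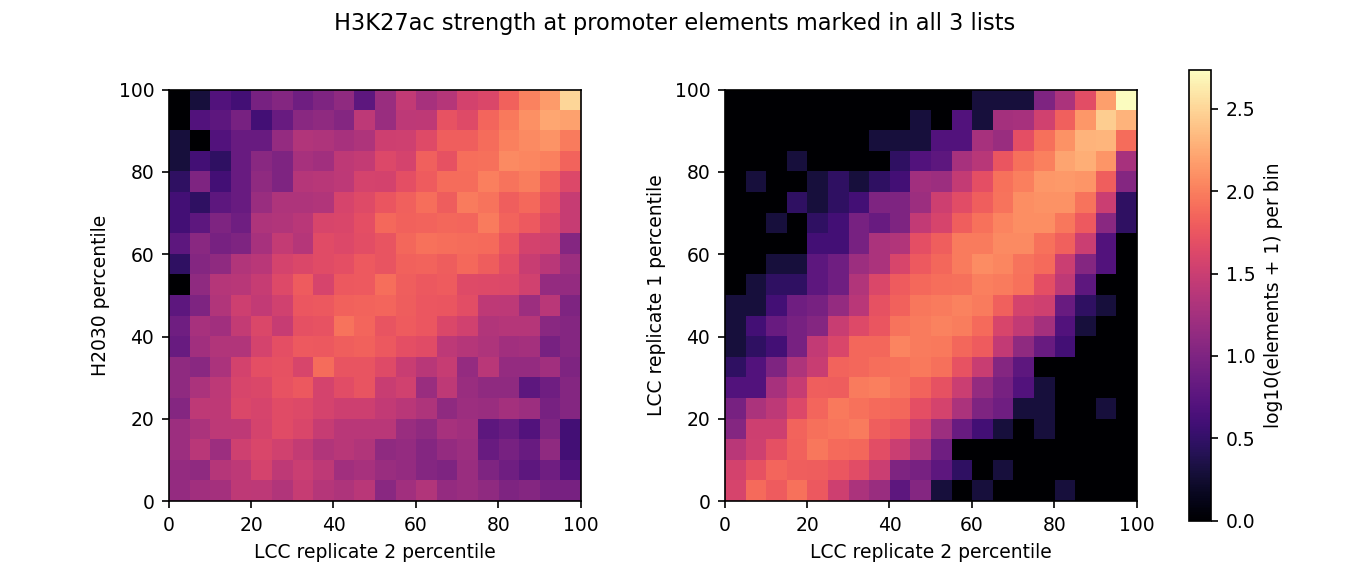
Percentile of H3K27ac score at the 13612 promoter elements marked in all 3 lists, for H2030 (left, vertical axis) or LCC replicate 1 (right, vertical axis) against LCC replicate 2 (horizontal axes). Colour gives log10(elements + 1) per bin. The H2030 panel is spread over the whole square, with a Spearman correlation of 0.56, and the replicate panel follows the diagonal, with 0.89.

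Distal summits were shared less often than promoter summits, as given above, but they were also weaker. The median H2030 score was 8.11 at distal summits and 122 at promoters, and weak summits were shared less often. Location and strength were not separated here. The distal calls below also set no condition on score, unlike the promoter calls. Of 30976 distal H2030 summits, 9556 (30.8%) had no LCC summit of either replicate within 10 kb and are called H2030-only. Of 17803 distal LCC summits present in both replicates, 7981 (44.8%) had no H2030 summit within 10 kb and are called LCC-only. The order of these numbers depended on the LCC libraries used. With LCC replicate 2 as the only LCC list, H2030-only summits numbered 10210 and LCC-only ones 18057, and with replicate 1 they numbered 12391 and 12738, since presence in both replicates was then not required. Against a single list, 33.0% of distal H2030 summits had no replicate 2 summit within 10 kb, where 6.58% of distal replicate 1 summits had none. Against replicate 1, the shares were 40.0% for H2030 and 18.6% for replicate 2. H2030 summits were thus unmatched more often than those of the other LCC replicate in both cases.

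Most sites of H3K27ac in a single line lacked H3K4me1 in the other line as well. LCC H3K4me1 lay within 1 kb of 27.7% (26.8 to 28.6) of the H2030-only summits, against 85.6% (84.8 to 86.4) of the 7099 distal H2030 summits shared with both replicates within 1 kb. H2030 H3K4me1 lay within 1 kb of 25.8% (24.8 to 26.8) of the LCC-only summits, against 83.1% (82.1 to 84.0) of the 5899 LCC summits shared with H2030. Lists moved by 2 Mb gave 9.51% and 8.67% for the H2030-only and LCC-only summits. The summits found in a single line were also weaker. Their median score was 7.56 for H2030-only, against 16.5 for the shared H2030 summits, and 8.99 for LCC-only, against 12.1 for the shared LCC summits. The part of strength in these shares was not tested. In their own line, 76.8% of the H2030-only and 88.4% of the LCC-only summits had H3K4me1. No H3K4 mark of LCC lay within 10 kb of 45.1% of the H2030-only summits, and none of H2030 within 10 kb of 51.3% of the LCC-only summits.

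TGFb and SO1 carried H3K27ac at most LCC-only distal sites and at few H2030-only ones. TGFb and SO1 had H3K27ac within 1 kb of 13.5% (12.8 to 14.2) and 10.7% (10.1 to 11.3) of the H2030-only summits. They had it at 80.1% (79.2 to 81.0) and 64.8% (63.7 to 65.8) of the LCC-only summits. At the LCC summits shared with H2030 these shares were higher, 90.1% in TGFb and 84.5% in SO1. The sites were chosen by presence or absence in untreated LCC, so the shares are no independent measure of likeness. Over whole lists, 42.9% of H2030 summits had a TGFb summit within 500 bp and 39.4% had one of SO1, against 35.5% and 39.0% for LCC replicates 1 and 2. These lists differ in length, with 68069 summits in TGFb and 56279 in SO1.

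**Figure D4:**
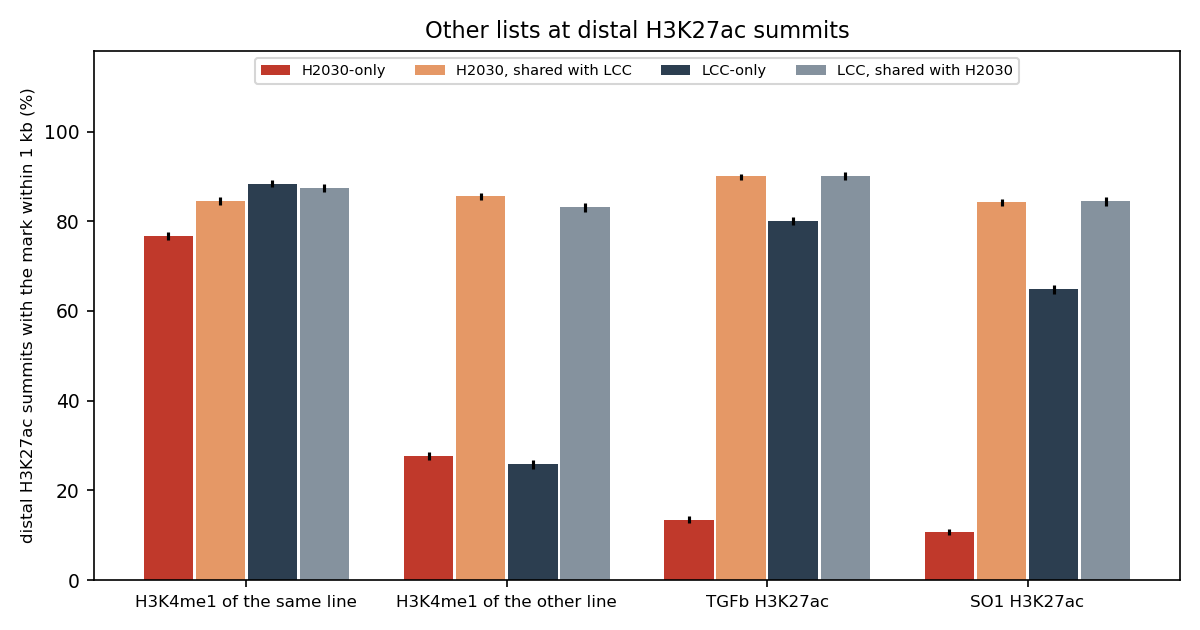
Share of distal H3K27ac summits (vertical axis, %) with H3K4me1 of their own line, H3K4me1 of the other line, or H3K27ac of TGFb or SO1 within 1 kb (horizontal axis). Colours separate H2030-only summits, H2030 summits shared with both LCC replicates, LCC-only summits and LCC summits shared with H2030, and bars are Wilson 95% intervals. H3K4me1 of the other line stood at 27.7% and 25.8% of the summits found in 1 line, against 85.6% and 83.1% of shared ones.

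The strongest H2030-only distal summit, 4:143013604, scored 435 (rank 163 of the H2030 list) and stood 64984 bp and 65704 bp from the nearest summits of LCC replicates 1 and 2. H2030 H3K4me1 scored 76.5 there and LCC had no H3K4me1 within 3442 bp. At 2:228253265 (score 410), by contrast, LCC carried H3K4me1 with a score of 10.5 and SO1 a weak H3K27ac summit of 7.02. The summits 3:106935348 (411) and 21:39512988 (363) had no LCC H3K4me1 within 8453 bp and 30360 bp. Around 9:81487409 (370) and 5:28375499 (355) the nearest LCC H3K27ac summit was at least 575782 bp away. The 500 kb blocks that hold them had 20 and 70 H2030 summits of the 3 marks, against 1 and none in LCC. There absent DNA and absent marks cannot be told apart. Of these 6 sites only 2:228253265 thus carried H3K4me1 in LCC.

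Of the 6 strongest LCC-only distal summits, 3 stood close together, at 2:96099959, 2:96308263 and 2:96379991. Their LCC H3K27ac scores were 255 and 315, 262 and 369, and 233 and 439 in replicates 1 and 2. LCC H3K4me1 at the first and second ranked 4 and 5 in its list. H2030 had no H3K27ac within 31763 bp and no H3K4me1 within 29493 bp of any of them. The summit 3:167741995 (251 and 301) lacked H2030 H3K4me1 within 39253 bp, and 11:78513010 (208 and 267) within 86455 bp. At 3:189404212 (170 and 265) H2030 kept weak H3K4me1 with a score of 6.01.

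In lists of equal length, H3K27ac of H2030 was also gathered into denser groups. When summits within 10 kb were joined, in lists of equal length, 348 H2030 regions held 10 or more summits, against 104 in LCC replicate 1 and 74 in replicate 2. These regions took 9.63% of the H2030 summits, against 2.51% and 1.74% of the LCC summits. In the full lists the numbers were 402 in H2030, and 104 and 284 in the LCC replicates. There the replicates differed more from each other than H2030 did from replicate 2. DNA copy number was not measured, and its part in these groups was not tested. Ranked by summed score, 5 of the first 20 H2030 regions were among the first 100 of LCC replicate 1 and 7 among those of replicate 2. The replicates found 13 and 15 of each other's first 20.

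The first dense region of H2030, X:114960745-115004721, held 16 H3K27ac, 31 H3K4me1 and 15 H3K4me3 summits, and LCC held none of any mark. TGFb and SO1 also had no H3K27ac summit there. Other leading H2030 regions outside the first 100 of both LCC replicates were acetylated in LCC as well. The region 1:154928863-154999065 held 18 summits in H2030, against 8 and 11 in the LCC replicates. At 6:30720602-30796183 the numbers were 23 in H2030 and 6 and 10 in LCC. At 2:85147657-85197681 they were 12 in H2030 and 6 and 5 in LCC. At 1:228744314-228782104 they were 19 in H2030 and 17 and 26 in LCC. Of the leading LCC replicate 1 regions outside the first 100 of H2030, 15:67369169-67439077 differed most, with 2 summits in H2030, against 16 and 17 in LCC. Another, 10:33519246-33604808, held 17 summits in H2030, against 24 and 16 in LCC. H2030 held 2 at 1:149803800-149833102, against 6 and 5 in LCC. In the remaining regions H2030 held as many summits as LCC or more. At 8:128857337-128913406 it held 16, against 12 and 16 in LCC, and at 17:55967835-56032283 it held 19, against 14 and 16.

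Counts over 200 kb windows, chosen after the data were seen and in lists of equal length, gave the difference between the lines over longer stretches. DNA copy number was not measured here, so in these windows, and in the blocks and chromosomes that follow, it and the state of the marks cannot be told apart. H2030 had at least 5 more summits than both replicates, and more than the replicates differed by, in 961 of 10732 windows (8.95%). It had at least 5 fewer, by the same rule, in 773 windows (7.20%). The balance turned round under some other settings, with 868 higher and 901 lower windows in full lists, 1128 and 1185 without LCC replicate 1, and 1140 and 1223 without replicate 2. It did not in windows of 100 kb, where 957 were higher and 570 lower. H2030 differed by 5 or more summits from replicate 1 in 22.0% of windows and from replicate 2 in 21.6%, while the replicates differed from each other by that much in 3.93%. H3K4me1 moved the same way in most of these windows, and H3K4me3 in fewer. H3K4me1 summits were more numerous in H2030 in 842 of the 961 higher windows and fewer in 709 of the 773 lower windows. Over all windows H2030 had more H3K4me1 summits in 4181 and fewer in 5826. H3K4me3 summits were more numerous in H2030 in 597 of the higher windows and fewer in 504 of the lower windows, against 2814 and 3396 of all windows.

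The windows with the largest excess, 5:58400001-58600000 and 8:19400001-19600000, each held 45 H2030 H3K27ac summits, against 2 in either LCC replicate. H2030 H3K4me1 numbered 50 and 38 in these, against 13 and 9 in LCC. At 7:80400001-80600000, around the gained element named above, the numbers were 42 H2030 summits and none in either LCC replicate, with 10 H2030 H3K4me3 summits and 1 in LCC. The window 18:45400001-45600000, with the leading gained element, held 33 summits in H2030, against 1 in each LCC replicate. The windows 16:81600001-81800000 (46 in H2030, against 8 and 8), 2:28200001-28400000 (37, against 3 and 4) and 3:189600001-189800000 (41, against 9 and 10) were already acetylated in LCC. The next window on chromosome 5, 5:58600001-58800000, held 33 in H2030, against 1 and 2.

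Among the 10 windows with the largest deficits, 8 held 10 or more summits in both TGFb and SO1. At 1:64200001-64400000 H2030 had no H3K27ac summit, against 18 in each LCC replicate, and 7 H3K4me1 summits, against 52. At 17:2000001-2200000 it had none, against 18 and 17, with 31 in TGFb and 17 in SO1. At 3:177200001-177400000 it had 1, against 24 and 20, and at 10:12400001-12600000 it had 2, against 20 and 28. At 8:42000001-42200000 it had 7, against 27 and 29. The window 1:203000001-203200000, which holds the lost element at 1:203122044, had 2 H2030 summits, against 18 and 22. Smaller shares of the LCC number were missing at 1:33800001-34000000 (7, against 26 and 24) and 9:130600001-130800000 (11, against 28 and 26).

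All 3 marks together were nearly absent from some 500 kb blocks in a single line. Blocks with at least 15 H2030 summits and at most 5% of that number in LCC numbered 81 of 3573 (2.27%), and the reverse held for 32 of 3820 (0.838%). The fullest, 2:185000001-185500000, held 42 H3K27ac, 99 H3K4me1 and 13 H3K4me3 summits in H2030 and none in LCC. The blocks 11:24000001-24500000 and 7:80000001-80500000 held 123 and 111 H2030 summits, against 5 and 3 in LCC. The block 4:67000001-67500000, which holds the gained element named above, had 74 in H2030 and none in LCC. In the reverse direction, 3:134500001-135000000 had 3 summits in H2030 and 65 in LCC, and 9:87500001-88000000 had 1 and 56. On chromosome X, 6 blocks had no H2030 summit of any mark, the fullest being X:9000001-9500000 with 51 in LCC.

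Whole chromosomes differed as well, within narrower limits. In lists of equal length, the ratio of H2030 summits to the LCC mean was highest on chromosome 18 at 1.26 (982 summits, against 773 and 789) and chromosome 4 at 1.17. It was lowest on chromosomes 13 and 3, at 0.876 and 0.879. The replicates' own ratio ranged from 0.957 to 1.07. H3K4me1, in full lists, gave 1.15 on chromosome 18, 0.976 on 4, 0.741 on 13 and 0.820 on 3, and was highest on chromosome 19 at 1.25. The full H3K4me1 lists held 132848 summits in H2030 and 142611 in LCC. The ratios of the marks thus have unlike baselines, and their sides of 1 cannot be compared. Distal sites found in H2030 only made up 46.9% of distal H2030 summits on chromosome 4, against 16.5% on chromosome 22. On chromosome 19, 22.9% of distal LCC summits were LCC-only, the lowest share of any chromosome, and on chromosome 13, 57.8% were, the highest.

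**Figure D5:**
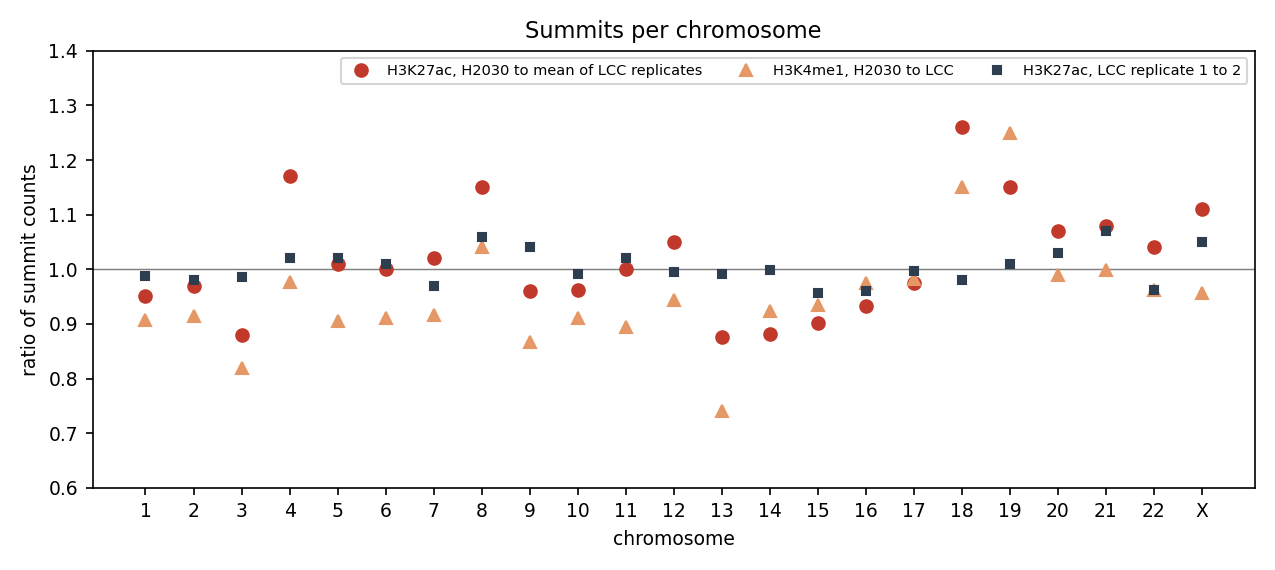
Ratio of summit counts by chromosome: H3K27ac of H2030 to the mean of the LCC replicates and LCC replicate 1 to 2 (lists of equal length), and H3K4me1 of H2030 to LCC (full lists). The line marks a ratio of 1. The H2030 H3K27ac ratio runs from 0.876 on chromosome 13 to 1.26 on chromosome 18, and the replicate ratio from 0.957 to 1.07.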

How the data were processed

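The submitters' processing notes name Bowtie2 and SAMtools, deepTools, and hg19 as the genome build. The peak caller was not given in the sources used here, nor was its control. The authors' deposited lists each hold 1 bp summits with a score, read as a −log10 p-value or q-value by the authors' caller because no value lies below 1.30103. Which of these it is was not settled. All peaks of a list bear the name of a single library. The lists used here lost between 29 and 238 summits outside chromosomes 1 to 22 and X, and no other regions were filtered out. Read depth is unknown.

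The comparison and its lists were chosen with earlier results of these data known. The reference at hand is GRCh38 and no coordinates were converted, so summits were not named by nearest gene. Counts per gene, gene lists and motifs were not run. Merged H3K4me3 summits stand for promoters, and counts per 200 kb window replace counts per gene. Named regions are the first 12 promoter elements, 6 distal summits and 10 windows per direction by rank or difference, 5 dense regions per line, and, chosen after the data were seen, the 6 strongest with strong H3K4me3. Of the largest rank shifts, likewise chosen after the data were seen, 2 per direction are given. The promoter and window calls were run on simulated lists built from the LCC replicates, with planted differences that met the rules. Such a run checks the code only and gives no rate of false calls between lines. Python 3.11.15, numpy 2.4.6, scipy 1.17.1 and pandas 2.3.3 were used.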

Additional observations from a re-analysis of the deposited data

How the results depend on the processing

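Of 68 recomputed values, 41 stayed within 1.5 times (counts), 1 SD or the 95% interval (shares) and 27 moved, and losses outnumbered gains at promoters in every setting run. The share of H2030 summits found in LCC, 37.2% in full lists, was 31.2% within 250 bp, 45.4% within 1000 bp and 43.5% for scores of at least 10. The share of LCC summits found in H2030, 34.8%, was 29.0%, 44.5% and 42.4%. With each LCC replicate left out, these shares ranged from 35.5% to 39.0% and from 32.6% to 37.1%. Lost promoter elements numbered 613 with 25 kb kept free. Without the condition on rank 2403 were gained and 2653 lost, and with strong H3K4me3 148 and 288. Leaving out a replicate gave 418 to 539 gained and 798 to 837 lost. H2030-only distal summits numbered 5485 with 25 kb kept free and 5373 for scores of at least 10, and LCC-only ones 3752 for such scores, so that at 25 kb H2030-only no longer outnumbered the 5500 LCC-only ones. Without a replicate they were 10210 to 12391 and 12738 to 18057, since a summit of both replicates was then not required. Windows with fewer H2030 summits numbered 1185 to 1223 without a replicate, and those with more 1128 to 1140. In all summits as deposited the windows were 868 higher and 901 lower, and windows of 100 kb gave 957 higher and 570 lower. Of the first 20 dense regions of H2030, 7 were found in either replicate, 11 when joined within 20 kb, 1 when ranked by number of summits, and 5 to 7 without a replicate. Within 2000 bp, LCC H3K4me1 stood at 32.4% of H2030-only and H2030 H3K4me1 at 29.4% of LCC-only summits. Without a replicate these shares ranged from 29.6% to 34.7% and from 23.9% to 24.0%, LCC H3K4me3 at gained promoters from 28.9% to 32.1%, and H2030 H3K4me3 at lost ones from 14.0% to 15.7%. With replicate 2 in place of 1, 38 blocks were nearly empty in H2030 and 81 in LCC. The cause of these moves was not tested. Of the 29 named promoter elements, 15 gained and 14 lost, all kept their call in each setting run except 25 kb, where 12 gained and 10 lost ones did, and strong H3K4me3, where 6 and 6 did. These elements are the strongest calls. Settings that loosen the rule, cut weak summits or leave out a replicate could hardly remove them, so their survival there shows little. The settings strong H3K4me3, 2000 bp and all those for windows, and leaving out a replicate except at promoter elements and distal summits, were chosen after seeing the data, and other settings for counts per gene were not run without an hg19 annotation. No paired analysis was possible because H2030 has 1 H3K27ac library. Read depth is unknown, so what it limits was not tested.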

Other observations

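In 99 of the 961 windows where H2030 had more H3K27ac summits, it had fewer H3K4me1 summits than LCC. The window 3:171800001-172000000 held 51 H3K27ac summits in H2030, against 17 and 19 in the LCC replicates, but 11 H3K4me1 summits in H2030, against 36 in LCC. At 2:36600001-36800000 the numbers were 50 in H2030, against 8 and 10, for H3K27ac, and 13, against 26, for H3K4me1.

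Some blocks with LCC H3K27ac and H3K4me3 held no H3K4me1 summit in either line. At 16:46000001-46500000 H2030 had no summit of any mark, while LCC had 23 and 18 H3K27ac and 11 H3K4me3 summits. At 10:42000001-42500000 H2030 again had none, while LCC had 17 and 12 H3K27ac and 6 H3K4me3 summits. Summits were filtered by chromosome only, so any that arose from misaligned reads were kept. Their part in these blocks was not tested.

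Of the 10 windows with the largest H3K27ac deficit in H2030, 2 were also sparse in TGFb and SO1. At 2:92200001-92400000 H2030 had 2 summits, against 18 and 21 in the LCC replicates, with 2 in TGFb and 4 in SO1. At 10:42400001-42600000 it had none, against 17 and 16 in LCC, with none in TGFb and 4 in SO1. This window overlaps the block at 10:42000001-42500000. The part of misaligned reads was not tested in these windows either.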
